A study of Mus musculus with 14 samples.

Results

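In mouse embryonic stem cells given the DMSO vehicle, 1306 genomic regions were listed for acetylation of histone H3 at lysine 27 (H3K27ac) where cells given doxorubicin had no listed region. These vehicle-only regions, called members below, were chosen from the peak list of the vehicle cells. A region had to reach a pileup of at least 21 fragments at its highest summit, 1.02 per 1000000 fragments kept, and to share no base with any region of the doxorubicin list. They are 1306 of the 25053 vehicle regions that reached this pileup (5.21%), and the other 23747, called shared regions here, touched a doxorubicin region by at least 1 bp. The complete vehicle list held 82177 regions over 88.4 Mb, and the complete doxorubicin list 112259 regions over 108 Mb. Run the other way at a matched depth (pileup of at least 17, or 0.998 fragments per 1000000), 5552 of 37670 doxorubicin regions (14.7%, 95% Wilson interval 14.4% to 15.1%) had no vehicle region.

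The cells were of the E14 line, a mouse embryonic stem cell line, at passages given as p20-30, grown on gelatin with leukemia inhibitory factor and inhibitors of MEK and GSK3. Doxorubicin-treated cells received 1 µM of the drug for 6 h and vehicle cells received DMSO for as long; both were then kept without drug for 6 h and harvested at 12 h. Chromatin immunoprecipitation and sequencing (ChIP-seq) gave lists for H3K27ac and H3K9me3 after doxorubicin and after vehicle, for HA in cells with HA-tagged p53 and in cells without the tag, and for input chromatin of doxorubicin-treated cells. The treatment of both HA groups is not stated in their titles, and both p53 libraries carry the number 1. The stated culture conditions include stable lines under drug selection, and which libraries came from them is not stated. Each of the 7 lists was called on 2 libraries together, so a region has 1 value per list, no comparison has a replicate check, and intervals cover counting error only. Of 10 embryonic stem cell marker genes, 9 had a vehicle H3K27ac region of this pileup within 1000 bp of a gene end, and 1 of 10 fibroblast marker genes did.

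H3K27ac marks active promoters and enhancers, and is removed by histone deacetylases when such elements fall silent. H3K9me3 marks heterochromatin, including silenced repeats. Doxorubicin traps topoisomerase II on cut DNA and evicts histones, and the DNA breaks stabilise p53, a transcription factor that activates its target genes.

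The H3K27ac pools held 17036528 fragments after doxorubicin and 20647895 after vehicle. The lowest pileup listed was 8 (0.470 per 1000000) after doxorubicin and 9 (0.436 per 1000000) after vehicle. The weakest member, at 1.02 fragments per 1000000, therefore stood 2.17 times above the lowest level listed after doxorubicin, and the median member, at 1.16 per 1000000, 2.48 times. Below that level the doxorubicin list gives no value, so no fold change can be given for any member. In pooled cells, loss of the mark from some cells and a lower level in every cell cannot be told apart.

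The 6 promoters printed here stand for the members that a gene can be tied to by its start. They belong to 6 of the 17 protein-coding genes whose start lay in a member and more than 10000 bp from any doxorubicin region: the 4 of highest pileup, and the first 2 by name of the 6 tied at a pileup of 24. Each stretch runs from 200 bp before the start to 20 bases from it on, in the gene's direction, from RefSeq (GRCm38.p6, the assembly behind mm10). It is set by the start and is not the sequence of the member. The stretches of Tubgcp5, Fam98b and Ndufaf4 lie mostly before their members, which begin at 55794108, 117249696 and 24898056. Capitals mark matches, on either strand, to a set of motifs. The TATA box of core promoters was searched as TATAAA. The CCAAT box, to which the factor NF-Y binds, was searched by its own letters. The GC box, to which Sp factors bind, was searched as GGGCGG. The site of ETS factors was searched as CCGGAAG. The E-box, which the Myc family can bind, was searched as CACGTG. The octamer, to which Oct factors bind, was searched as ATGCAAAT. None of these motifs contains another. A match is a description of the letters only, and it can lie outside the member, as the GC boxes of Ndufaf4 do.
Tubgcp5 chr7:55793925-55794144 + strand: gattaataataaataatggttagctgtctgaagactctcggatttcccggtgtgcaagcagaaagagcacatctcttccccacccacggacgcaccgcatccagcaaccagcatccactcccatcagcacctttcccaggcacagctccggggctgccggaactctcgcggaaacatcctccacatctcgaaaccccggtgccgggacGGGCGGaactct
Fam98b chr2:117249539-117249758 + strand: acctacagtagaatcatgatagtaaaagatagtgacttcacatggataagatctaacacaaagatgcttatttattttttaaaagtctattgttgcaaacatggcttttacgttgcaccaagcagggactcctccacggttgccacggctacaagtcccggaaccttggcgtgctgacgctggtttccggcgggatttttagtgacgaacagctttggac
Ndufaf4 chr4:24897883-24898102 + strand: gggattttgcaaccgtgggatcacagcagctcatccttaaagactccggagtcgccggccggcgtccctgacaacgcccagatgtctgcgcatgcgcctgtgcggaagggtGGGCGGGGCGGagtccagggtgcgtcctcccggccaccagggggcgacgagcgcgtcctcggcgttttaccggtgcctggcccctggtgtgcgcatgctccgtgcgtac
Zfp799 chr17:32830242-32830461 - strand: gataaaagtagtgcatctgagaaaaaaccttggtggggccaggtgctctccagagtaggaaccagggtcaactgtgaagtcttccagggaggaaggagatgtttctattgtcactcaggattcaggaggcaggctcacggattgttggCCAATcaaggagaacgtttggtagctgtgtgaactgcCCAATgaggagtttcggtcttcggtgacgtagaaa
4930558K02Rik chr1:161969129-161969348 - strand: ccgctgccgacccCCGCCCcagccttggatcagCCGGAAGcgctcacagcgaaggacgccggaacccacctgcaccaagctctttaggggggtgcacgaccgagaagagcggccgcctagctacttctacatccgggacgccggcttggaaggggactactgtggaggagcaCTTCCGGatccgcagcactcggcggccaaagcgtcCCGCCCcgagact
Cmpk1 chr4:114987209-114987428 - strand: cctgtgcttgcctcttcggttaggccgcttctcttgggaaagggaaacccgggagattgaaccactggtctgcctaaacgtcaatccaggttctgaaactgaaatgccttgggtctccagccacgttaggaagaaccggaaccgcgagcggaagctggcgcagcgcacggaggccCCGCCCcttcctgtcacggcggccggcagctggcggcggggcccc
The stretch of Fam98b has no match. The ones of Tubgcp5 and Cmpk1 each hold a GC box, that of Ndufaf4 overlapping GC boxes, that of Zfp799 a pair of CCAAT boxes, and that of 4930558K02Rik GC boxes and, on both strands, ETS sites. Zfp799 has the fewest CpG dinucleotides of the 6, with 5 in its 220 bases, and Ndufaf4 the most, with 24.

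Across the genome, 66 members (5.05%, 3.99% to 6.38%) covered an annotated transcription start, against 4648 shared regions (19.6%, 19.1% to 20.1%). Among regions of pileup 21 to 30, which hold 1124 of the 1306 members, the shares were 4.98% of members and 11.6% of shared regions. The 66 members held 78 starts of 72 genes, 50 of them protein-coding, which is 0.286% of the 17492 protein-coding genes in the promoter table. In comparison, 25.4% had a start in any vehicle region of that pileup. Of the 50, another start of the same gene lay in a doxorubicin region for 4 genes, Abcg2, Eif4enif1, Gpr19 and Spsb3. For 35 no start was within 1000 bp of a doxorubicin region, for 20 none within 5000 bp, and for 17 none within 10000 bp.

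The 17 genes had pileups of 21 to 33, with a median of 24, in regions of 277 to 1434 bp, and no H3K9me3 region overlapped any of these regions under either treatment. Tubgcp5, which encodes a subunit of the γ-tubulin complex that nucleates microtubules, had the highest pileup of the 17 (33), in a region of 304 bp with no doxorubicin region within 13196 bp of it. Fam98b, part of the tRNA ligase complex, followed at 31. Ndufaf4, an assembly factor of mitochondrial complex I, and Zfp799, a zinc finger gene, stood at 29. At 24 were Pigc, which acts in the synthesis of the glycosylphosphatidylinositol anchor, and 4930558K02Rik, whose starts face away from each other within 1 region of 605 bp that lay 60720 bp from the nearest doxorubicin region. Cmpk1, a pyrimidine nucleotide kinase, Thg1l, a tRNA guanylyltransferase, Tmem126b, another complex I assembly factor, and Usp16, which removes ubiquitin from histone H2A, also had 24. Commd9 and the centriolar gene Poc5 had 23, Gm15455 and Shq1, an assembly factor of H/ACA ribonucleoproteins, 22, and Cenpi, a kinetochore gene on the X chromosome, Csrnp3 and Mettl17 had 21. The last 3 sat exactly at the threshold, and for Csrnp3 the other of its 2 starts was 70094 bp from a doxorubicin region.

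**Figure D1:**
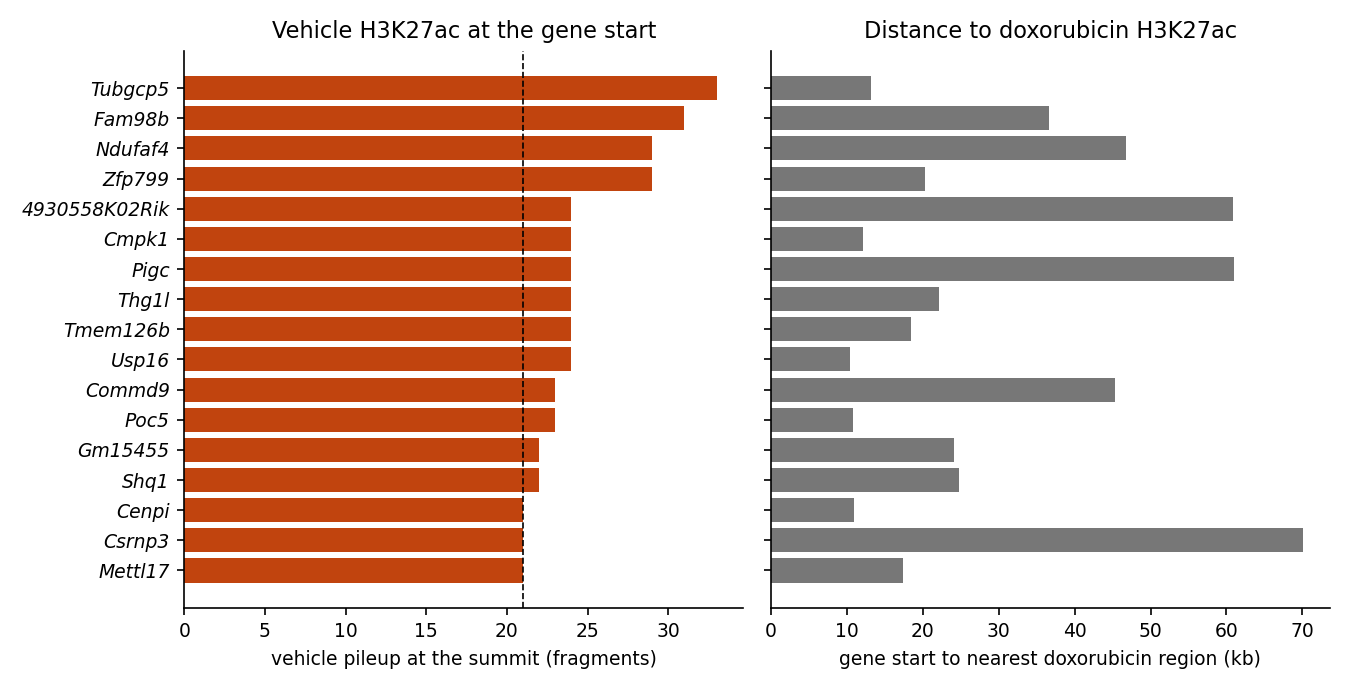
The 17 protein-coding genes whose start lay in a vehicle-only H3K27ac region and more than 10000 bp from any doxorubicin region. Left, the vehicle pileup of that region in fragments, with the threshold of 21 dashed; right, the distance in kb from the nearest annotated start of the gene to the nearest doxorubicin H3K27ac region. Pileups run from 21 to 33 and distances from 10438 to 70094 bp.

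CpG-rich promoters made up a smaller share of the starts in members than in shared regions. Of the 78 starts, 41 (52.6%, 41.6% to 63.3%) had an observed to expected CpG ratio of at least 0.6 in the window from 250 bp before to 50 bp after, against 68.6% (67.4% to 69.7%) of the 6352 starts in shared regions, 60.5% (58.0% to 62.9%) of the 1522 in shared regions of pileup 21 to 30, and 35.8% of all 32851 starts. With members held to pileup 21 to 30 as well, 34 of 68 starts (50.0%, 38.4% to 61.6%) had this ratio, an interval that overlaps that of the shared regions of the same pileup. The median GC content of the window was 54.5% for starts in members, 59.3% for starts in shared regions, 58.0% for starts in those of pileup 21 to 30 and 52.7% over all starts. A start in the opposite direction lay within 1000 bp of 21.8% (14.1% to 32.2%) of the starts in members and of 32.4% of those in shared regions. At pileup 21 to 30 these shares were 23.5% (15.0% to 34.9%) and 28.6% (26.4% to 31.0%), with overlapping intervals. The CCAAT box was in 50.0% (39.2% to 60.8%) of the windows of starts in members, 38.6% (37.5% to 39.9%) of those of starts in shared regions and 37.4% of all windows. At pileup 21 to 30 it was in 50.0% (38.4% to 61.6%) for members and 38.7% (36.3% to 41.2%) for shared regions, and these intervals overlapped. A window is set by the start and can reach outside the region that holds it. For starts in members, starts in shared regions and all starts, in that order, the GC box was in 48.7%, 56.6% and 35.7% of windows. The ETS site was in 16.7%, 21.3% and 8.86%, the TATA box in 8.97%, 6.66% and 13.6%, and the E-box in 14.1%, 10.3% and 7.15%. The octamer was in 0 of 78, which allows a share of up to 3.85% (3 counts), 1.53% and 1.74%. Neighbouring starts share bases, so these windows are not independent.

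Most members lay away from gene ends. The summit was within 1000 bp of an annotated gene end, start or finish, for 230 members (17.6%, 15.6% to 19.8%) and for 30.7% (30.1% to 31.3%) of shared regions. It was further inside a gene for 35.7% of members and 41.3% of shared regions, and outside genes for 46.7% (44.0% to 49.4%) and 28% (27.4% to 28.6%). Among regions of pileup 21 to 30 the gene-end shares were 17.7% and 25.5%, and among those that were also 500 to 1000 bp long 15.8% (77 of 487) and 29.4% (988 of 3359). Members had a median of 8 protein-coding genes starting within 500000 bp, and shared regions 12. Where the summit lay in a protein-coding gene, that gene had a median length of 73460 bp over 504 members and of 51589 bp over 13460 shared regions.

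**Figure D2:**
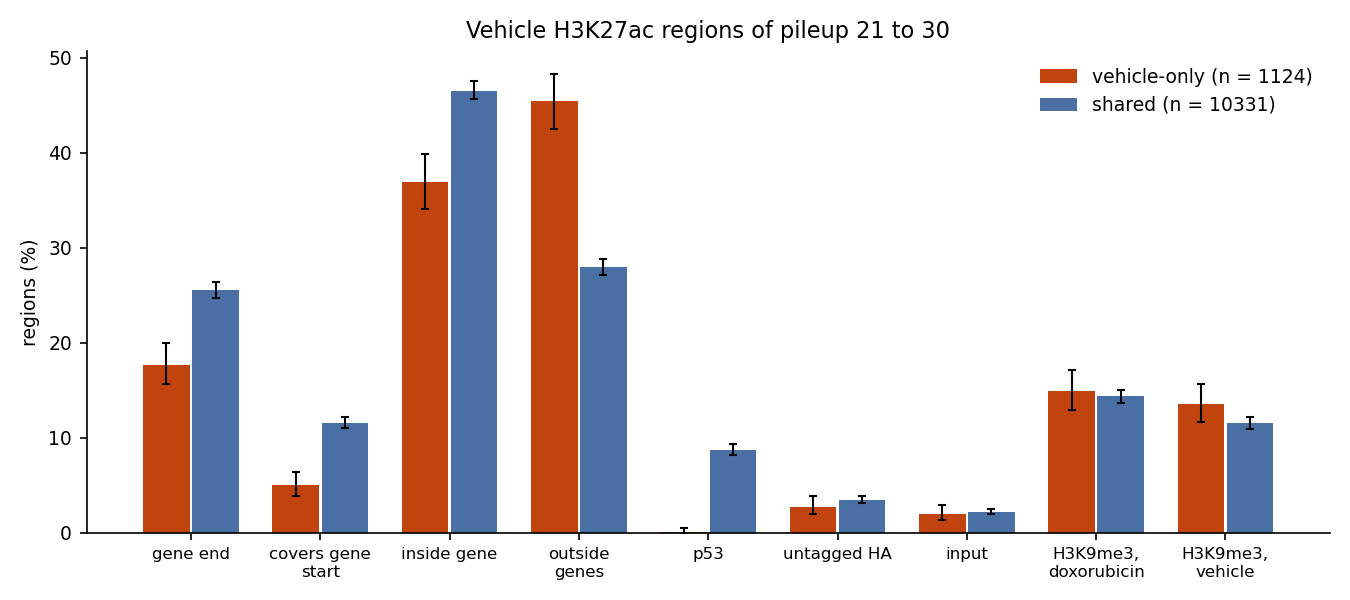
Shares of vehicle-only (left bar, n = 1124) and shared (right bar, n = 10331) vehicle H3K27ac regions of pileup 21 to 30 that lie at each place or overlap a region of each list, in percent with 95% Wilson intervals. Vehicle-only regions were less often at gene ends or starts, more often outside genes, and almost never overlapped a p53 region.

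p53 regions were nearly absent from the members. Only 2 of 1306 (0.153%, 0.0420% to 0.557%) overlapped a region of the p53 list, against 2375 shared regions (10.0%, 9.63% to 10.4%). At pileup 21 to 30 the shares were 0.0890% and 8.75%. At that pileup and 500 to 1000 bp in length they were 0 of 487, which allows a share of up to 0.616% (3 counts), and 7.12%. The difference narrowed with distance: a p53 region lay within 5000 bp of 3.98% of members and 16.4% of shared regions, and within 50000 bp of 38.7% and 53.1%. Both members with a p53 region also overlapped the untagged list, which was called on the HA antibody without its target. One, chr10:10335319-10335589, lay at the globin gene Adgb with a pileup of 34 and a p53 fold enrichment of 4.37. The other, chr4:145404234-145404552, had a pileup of 22 and a p53 fold enrichment of 2.64. In the untagged list itself 3.45% of members and 5.02% of shared regions had a region, and in the input list 2.07% and 2.74%, a narrower gap than at p53 in both.

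The share of members with H3K9me3 was below, near or above that of shared regions, depending on which regions and which window were compared. After doxorubicin, 210 members (16.1%, 14.2% to 18.2%) and 18.1% (17.7% to 18.6%) of shared regions overlapped an H3K9me3 region, and after vehicle 14.4% (12.6% to 16.4%) and 15.3% (14.9% to 15.8%). At pileup 21 to 30 the shares after doxorubicin were 14.9% and 14.4%. At that pileup and 500 to 1000 bp they were 15.2% (12.3% to 18.7%) and 20.6% (19.2% to 22%). In regions of at least 500 bp of any pileup they were 13.4% (11.3% to 15.8%) and 17.9% (17.4% to 18.4%). The intervals did not overlap in either case, but regions of at least 500 bp were not matched on length above that limit. A longer region has more bases that can overlap. Within 500 bp of the summit, a window of the same width for every region, the order was the other way: after doxorubicin 16.5% and 15.6%, and at pileup 21 to 30 after vehicle 14.1% (12.1% to 16.2%) and 10.8% (10.2% to 11.4%). The intervals of the latter pair did not overlap either. An H3K9me3 region was listed after doxorubicin alone at 46 members and after vehicle alone at 24, a ratio of 1.92, whereas these numbers were 926 and 263 at shared regions, a ratio of 3.52. The 2 ratios were not tested against each other. At 1072 of the 1306 members no H3K9me3 region was listed under either treatment.

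Members lay both beside and far from the regions listed after doxorubicin. The gap to the nearest doxorubicin region, which the rule holds above 0, was 58 bp at the least and 2940 bp at the median. It was at most 1000 bp for 416 members (31.9%). For 375 of them that nearest doxorubicin region itself overlapped a vehicle region of any pileup in the complete list. It was over 1000 and up to 10000 bp for 512 (39.2%), over 10000 and up to 50000 bp for 226 (17.3%) and over 50000 bp for 152 (11.6%), among them 1 on an unplaced sequence without any doxorubicin region. H3K9me3 was more frequent at greater gaps: after doxorubicin 9.62%, 12.1%, 19.5% and 42.1% of members overlapped it across these 4 classes, and after vehicle 9.86%, 12.3%, 16.4% and 30.9%. Gene ends were least frequent in the last class, at 5.92%.

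**Figure D3:**
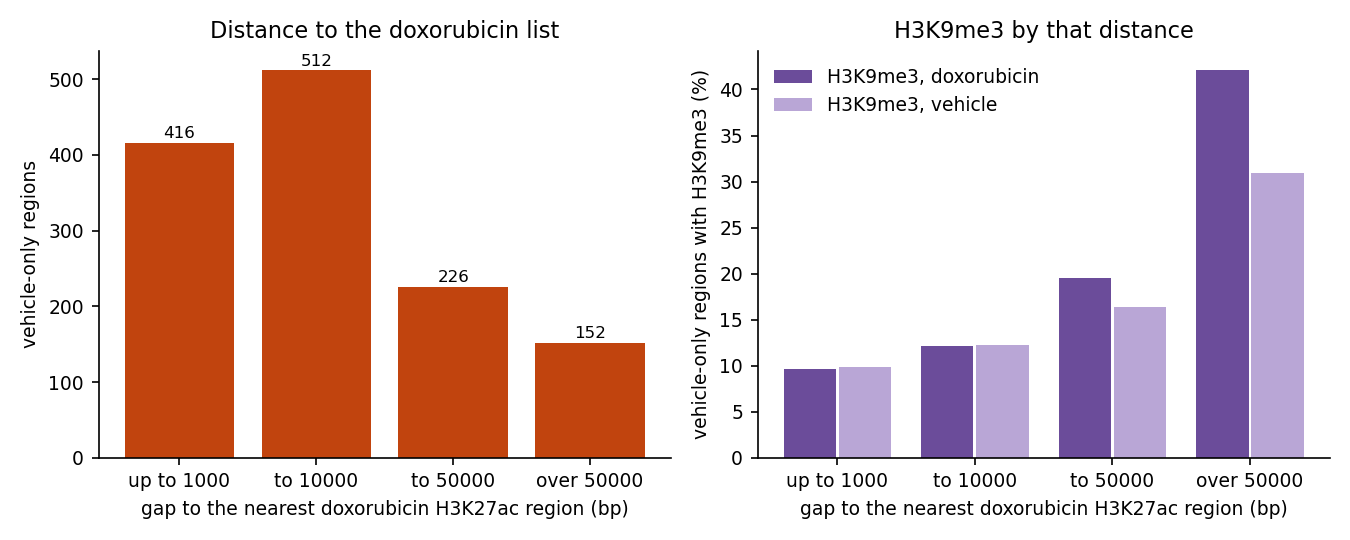
Left, the number of vehicle-only regions by the gap in bp to the nearest doxorubicin H3K27ac region. Right, the percent of them that overlap an H3K9me3 region after doxorubicin (dark) and after vehicle (light); 42.1% and 30.9% of those over 50000 bp away did so.

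Isolation from other vehicle regions, which the rule did not use, went with H3K9me3 in shared regions too, and to a greater extent. Of the 133 members with no other vehicle H3K27ac region within 50000 bp, 48.1% (39.8% to 56.5%) overlapped H3K9me3 after doxorubicin, against 72.4% (70.3% to 74.4%) of 1895 shared regions. At pileup 21 to 30 these shares were 46.4% (37.5% to 55.6%) and 58.8% (55.0% to 62.4%). Within 1000 bp of another vehicle region, the shares were 11% of 725 members and 11.1% of 12115 shared regions. There, gene ends were at 15.6% of members and 28% of shared regions, while in the most isolated class they were at 13.5% and 13%.

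Members were low and narrow, as the rule favours. The pileup had a median of 24 in members and 33 in shared regions, and the length a median of 662 bp and 1516 bp. A single summit made up 64.8% of members and 27.2% of shared regions. Of regions with pileup 21 to 22, 13.7% were vehicle-only, and of those with 51 to 100, 0.174%. Of regions 264 to 300 bp long 45.7% were vehicle-only, and of those over 3000 bp 0.253%. Only 182 members exceeded a pileup of 30, 13 exceeded 50 and 5 exceeded 100. At the threshold itself, 263 members had a pileup of 21, and 346 regions with 20 and no doxorubicin region fell just outside. The members nearest to a doxorubicin region were 58, 72 and 74 bp from it, and the shared regions with the least overlap shared 29, 95 and 107 bp. Of the shared regions, 2438 had less than 50% of their length covered.

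**Figure D4:**
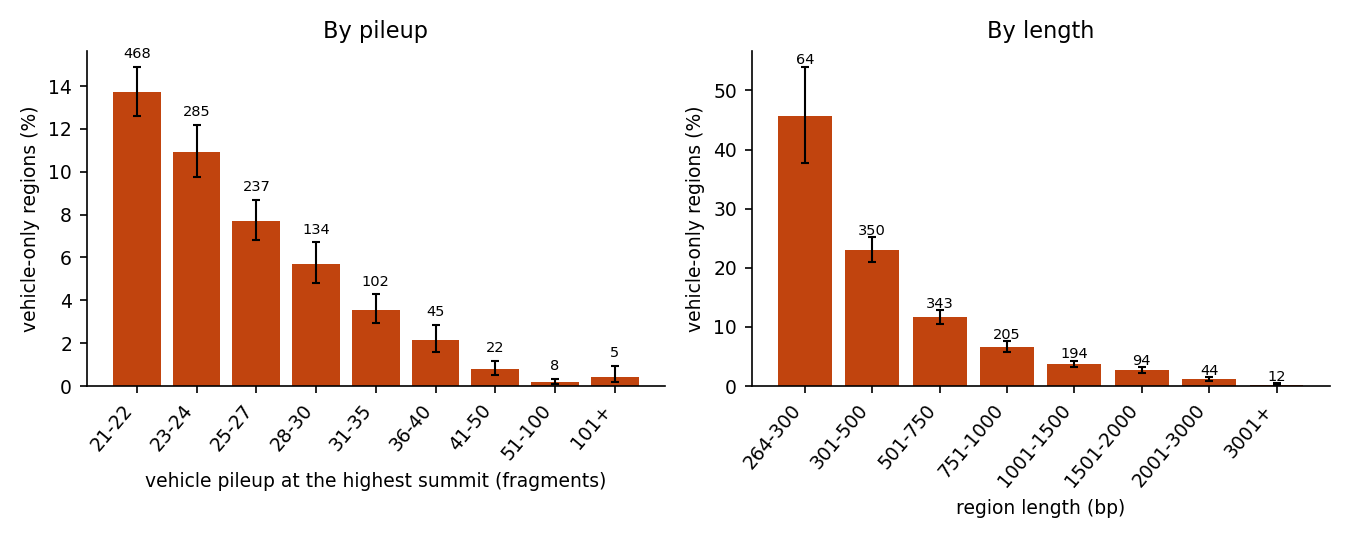
Percent of vehicle H3K27ac regions of pileup 21 or more that had no doxorubicin region, by pileup in fragments (left) and by length in bp (right), with 95% Wilson intervals and the number of vehicle-only regions above each bar. The share falls from 13.7% at pileup 21 to 22 to 0.174% at 51 to 100, and from 45.7% at 264 to 300 bp to 0.253% above 3000 bp.

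The members of highest pileup were mostly very narrow. No region is shorter than the fragment length given in the header of its list, 270 bp after doxorubicin and 264 bp after vehicle. Members below 270 bp numbered 15 (1.15%), against 11 shared regions (0.0463%), and whether this limit kept their counterparts off the doxorubicin list was not tested. The highest of all, chr6:103649041-103649307 inside the cell adhesion gene Chl1, had a pileup of 4989 over 267 bp. The same place had 8201 in the input list, 6600 in the untagged list, and 9091 after doxorubicin and 9082 after vehicle in the H3K9me3 lists. The next, chr13:120321388-120321655, lay 3283 bp from Tcstv3, a gene of the 2-cell-like state, with 1098 over 268 bp and with 2904 and 2641 in the H3K9me3 lists. The third, chr12:93576973-93577250, had 497 and was also in the input, untagged and both H3K9me3 lists.

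Further members of high pileup had no such counterpart in the input list. They were chr19:61199581-61199866 (213, outside genes and in none of the other 5 lists), chr1:32378419-32378695 in Khdrbs2 (107), chr6:116242099-116242393 in Washc2 (76), chr6:58596149-58597137 over a start of the drug efflux transporter gene Abcg2 (62), chr3:23274411-23274723 (54) and chr11:69041368-69041888 (52). The last lay 3936 bp from Aurkb, the gene of a mitotic kinase, and 459 bp from a doxorubicin region. It also overlapped a region of the untagged list, of pileup 22.7. In the H3K9me3 lists after doxorubicin and after vehicle, the Abcg2 place had 30 and 49, and chr3:23274411-23274723 had 59 and 58. The Khdrbs2 place had 11 after doxorubicin alone, and the Washc2 place was in none of the other 5 lists. The member with 95 lay on the unplaced sequence GL456370 and did have an input counterpart. The same place had 116 in the input list, 298 in the untagged list, and 677 after doxorubicin and 659 after vehicle in the H3K9me3 lists. With that one, 5 members were outside the numbered chromosomes, X and Y: 1 on the mitochondrial genome, 1 on GL456378 and 2 on the contig that was added to mm10 for mapping.

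The long members give the other end of the range. Inside Jarid2, which encodes a subunit of Polycomb repressive complex 2, chr13:44749209-44753737 spanned 4529 bp with 7 summits and a pileup of 39, 560 bp from a doxorubicin region. Jarid2 held 2 more members, of pileup 36 and 21, among 10 vehicle regions of pileup 21 or more in the gene or within 10000 bp. The longest member, chr4:62246809-62251746, spanned 4938 bp with a pileup of 28 outside genes. Wide members far from any doxorubicin region were chr17:50425654-50429363 (pileup 44, gap 80556 bp) in the annotated entry Gm31015 and chr3:29023222-29026361 (pileup 48, gap 58931 bp) outside genes. Rtn4, Tmem131l and 4 further places held the others of the 10 longest. Among the latter was chrM:1605-5066 on the mitochondrial genome (3462 bp, pileup 21). It also overlapped regions of the input, untagged and both H3K9me3 lists.

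At gene ends, 217 of 21900 protein-coding genes (0.991%) had a member within 1000 bp, and 83 (0.379%) had in addition no doxorubicin region within 1000 bp of either end. The 25 strongest members with such a gene had pileups of 30 to 45 and fold enrichments of 8.41 to 12.5 over the genome-wide background, as the authors' caller gave them. A doxorubicin region lay within 1000 bp of 12 of these 25, and 5 were more than 10000 bp from one. The first was at neighbouring ends of Eif4enif1, which carries the cap-binding protein eIF4E into the nucleus, and Sfi1, a centrosome gene, with a pileup of 45 and a gap of 358 bp. Gcat and H1f0, which encodes the replacement linker histone H1.0, shared one of 43, and Zbtb14 and Cep43 had 42 and 40. Fxr1, an RNA-binding protein gene related to Fmr1, had 38 and a gap of 314 bp. Zfp292 and D030056L22Rik had 37, Zfp982 and the pair Atxn7l2 and Sypl2 36, and the proteasome gene Psma3, Dgkh and Cdon 35. Adgb, Dipk1a, Vcl (vinculin, of cell adhesions), Tubgcp5 and Fam98b were the 5 with gaps over 10000 bp. Akirin2, the pair Siae and Spa17, Cenpv, Arid5b, Sfxn1, Dgcr2, Ranbp17 and the pair Acot13 and Tdp2, with Tdp2 encoding the phosphodiesterase that releases trapped topoisomerase II from DNA ends, made up the rest. At Tdp2 a doxorubicin region stood 316 bp away.

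Gene lists of the pathways at hand each held at most 1 gene with a member within 1000 bp of an end. None of these genes lacked a doxorubicin region there. The genes with a member within 1000 bp of an end were Sall4, Cdk2, Lig3, Hdac2 and Rnf2, with pileups of 21, 22, 23, 21 and 26. In the gene or within 10000 bp, 866 protein-coding genes (3.95%) had a member, or 7.52% of the 11511 that had any vehicle region of pileup 21 or more there. Against that, 5 of 37 marked pluripotency genes had one: the zinc finger factor gene Sall4, Dppa3, Myc, Jarid2 and the DNA demethylase gene Tet2. Dppa3 and Myc each had this member, at the threshold of 21 itself, as the single vehicle region of pileup 21 or more there. The gaps to the nearest doxorubicin region were 3792 and 9080 bp. Weaker vehicle regions were not counted. Of 29 marked genes of Polycomb, DNA methylation and H3K9 silencing, 6 had one, namely Ezh1, Jarid2, Rnf2, Cbx1, Cbx5 and Morc3. The member of Cbx5 lay in its neighbour Hnrnpa1, and that of Morc3 lay 409 bp from an end of Chaf1b. Jarid2 counts in both lists, and the member of Cbx5 is counted again for Hnrnpa1 among the splicing factors below. The number of vehicle regions of pileup 21 or more per gene was not taken into account. It was 1 at Ezh1, 8 at Morc3, and 10 at Jarid2 and at Tet2. No list was tested against the background.

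The p53 target list had a member at 1 of 36 marked genes, Mdm2, whose product degrades p53. It lay inside the gene at chr10:117703000-117703789 with a pileup of 26, overlapped no p53 region, and was 609 bp from a doxorubicin region. Of 24 marked immediate early and signalling feedback genes, Spry2, an inhibitor of growth factor signalling, had one, chr14:105899851-105902642, with a pileup of 36 over 2792 bp and 332 bp from a doxorubicin region. DNA repair genes had 4 of 39 (Mre11a, Fancc, Rpa1 and Lig3), cell cycle genes 3 of 41 (Cdk2, Cdk6 and Aurkb), lineage regulators 3 of 15 (Neurog1, Neurod1 and Tfap2a), and acetylation and enhancer genes 3 of 36 (Kat2b, Kat7 and Hdac2). Among these, the members of Mre11a, Cdk2, Cdk6 and Kat7 lay inside other annotated entries, Gm16379, Pmel, Gm36470 and Gm11520 in that order. Splicing factors had 3 of 36 (Srsf6, Hnrnpa1 and Hnrnpu), ribosome biogenesis genes 2 of 26 (Dkc1, with 2 members, and Rrn3) and 2-cell-like genes 1 of 5 (Tcstv3). Ribosomal protein genes had 0 of 40, which allows a share of up to 7.50% (3 counts), imprinted genes 0 of 18 (up to 16.7%), and, with wider limits, embryonic stem cell markers 0 of 10 and fibroblast markers 0 of 5.

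Members were scattered: chained within 50000 bp of each other they formed 1163 groups, of which 1038 were a single member and 15 held 3 or more. The largest, chr4:145404234-145436195 at Gm42346, had 5 members of pileup 22 to 24 among 8 vehicle regions, with 5 doxorubicin regions in the same span. All 5 members overlapped H3K9me3 after vehicle and 3 did after doxorubicin. A group of 4 lay at chr9:3987622-4049251 outside annotated genes. The tightest groups of 3 lay at Srrm4, a neural splicing factor gene, at chr5:116444377-116451220, outside genes at chr3:89822108-89831173, where no doxorubicin region fell in the span, and at Sqle, which encodes squalene epoxidase of cholesterol synthesis, at chr15:59301632-59315896.

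Chromosome 13 had the highest vehicle-only share of the numbered chromosomes and X, with 104 of 1149 regions (9.05%, 7.53% to 10.8%), and chromosome 11 the lowest, with 69 of 1971 (3.50%, 2.78% to 4.41%). Chromosome 1 had 7.12% and the X chromosome 6.98% (44 of 630, 5.24% to 9.25%). At pileup 21 to 30 chromosome 13 had 16.3% (13.5% to 19.7%), X 15.8% (11.9% to 20.8%) and chromosome 11 6.68% (5.20% to 8.54%). X and 13, the 2 highest at pileup 21 to 30, also had the lowest ratios of doxorubicin to vehicle regions in the whole H3K27ac lists. This ranking too covers the numbered chromosomes and X. On X there were 1262 over 1280, a ratio of 0.986, and on chromosome 13 4021 over 3392, a ratio of 1.19. The other numbered chromosomes lay between 1.24 and 1.48. For H3K9me3, X had 5362 over 3282, a ratio of 1.63 and the highest of these chromosomes, and chromosome 13 had 1.19, the lowest. Chromosome Y, left out of the ranking, had lower ratios than chromosome 13, 0.919 for H3K27ac and 1.16 for H3K9me3. The H3K27ac ratios share their doxorubicin and vehicle lists with the rule and are a description.

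**Figure D5:**
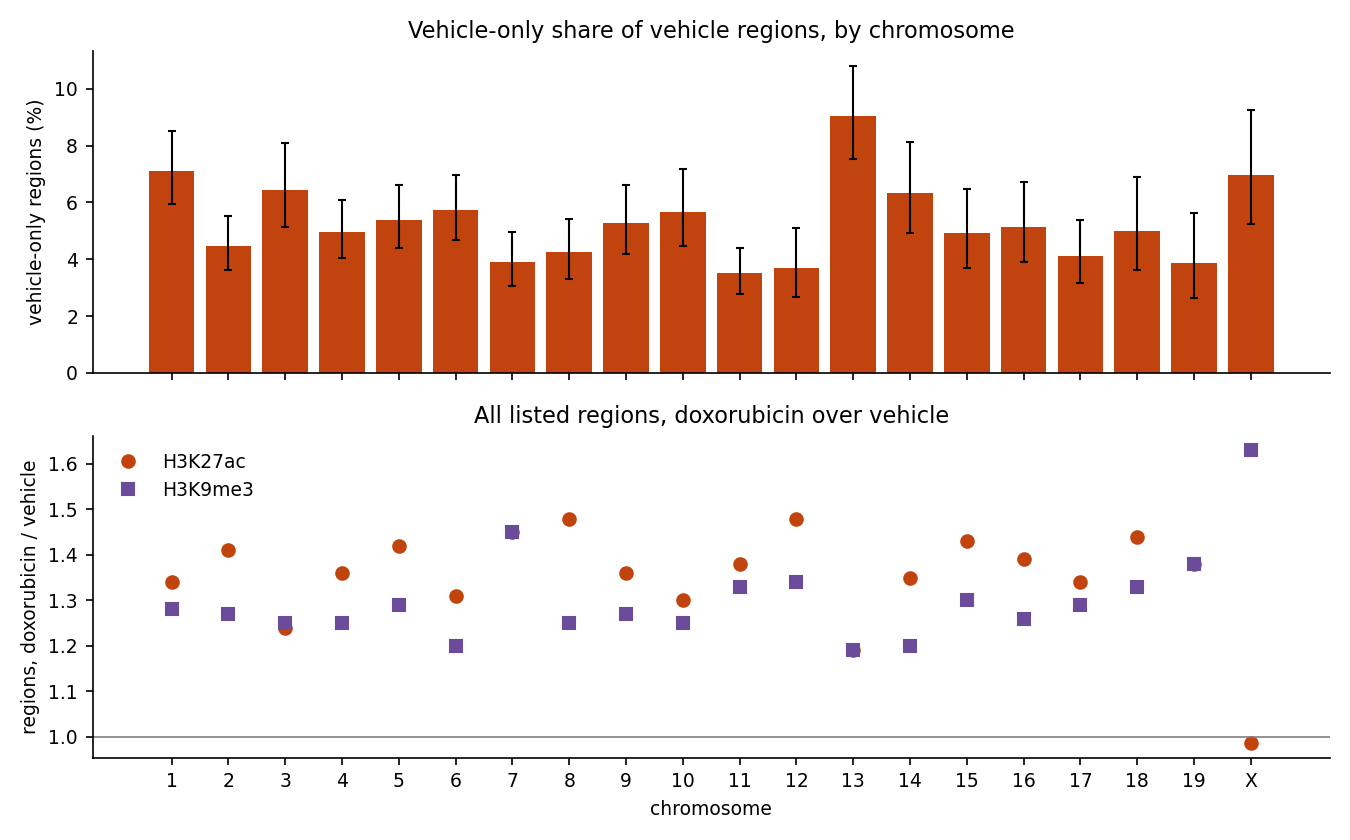
Top, the percent of vehicle H3K27ac regions of pileup 21 or more that were vehicle-only on each chromosome, with 95% Wilson intervals. Bottom, the number of doxorubicin regions over vehicle regions in the complete lists, for H3K27ac (circles) and H3K9me3 (squares), with a line at 1; X is at 0.986 for H3K27ac and 1.63 for H3K9me3. Chromosome Y, with 39 vehicle regions of that pileup, is not drawn.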

How the data were processed

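The 7 lists come from 14 libraries, 2 per group. Per the submitters' processing notes, reads went through Bowtie2 2.2.6; per the file headers, the genome was mm10 plus 1 contig. Also per the file headers, the authors pooled both libraries of a group and ran MACS 2.2.5 on read pairs, kept 1 duplicate and set the q limit to 0.05. The deposited signal is the unscaled pileup of fragments at a summit in the histone lists, and is scaled to the input depth in the HA lists. The deposited fold enrichment is a ratio of pileup to background, and deposited q values are given as −log10; histone lists had a genome-wide background and no control. Depth was 14402634 to 49588950 fragments per list.

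Summits with equal chromosome, start and end were joined into 1 region with the values of its highest summit. Overlap meant at least 1 shared bp. Shares carry 95% Wilson intervals, and no p-values are given, since a pooled list has no replicates. Genes (45073 entries) and starts (32851) came from RefSeq tables of GRCm38.p6. Scripts ran under Python 3.11.15 with pandas 2.3.3, numpy 2.4.6, scipy 1.17.1 and matplotlib 3.10.9. On 5300 simulated regions, 0 overlaps or gaps differed from those of bedtools 2.31.1. Named members were the 10 of highest pileup, the 25 strongest with a protein-coding gene end within 1000 bp, list genes with a member at an end, the 5 largest groups within 50000 bp and the values at the threshold. The 3 members just inside it were replaced by counts, since 263 tied. Promoter genes, the longest members, isolation classes and genes within 10000 bp were chosen after their values were seen. Members and lists were chosen with earlier results of these data known. Alternatives covered thresholds, overlap, merging, input regions, chromosomes, gene windows, length and pileup range.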

Additional observations from a re-analysis of the deposited data

How the results depend on the processing

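The number of vehicle-only regions, 1306, was 3744 when doxorubicin regions had to cover 50% of a region, 3211 when they needed a −log10 q of at least 5, 798 after merging within 1000 bp and 219 at a pileup of at least 30. The other 7 alternatives gave 890 to 1839. The gene-end share, 17.6%, was 21.1% with 50% covered, 15.4% with doxorubicin regions within 1000 bp counted as overlap, 27.0% and 12.6% with gene windows of 2500 and 500 bp, and 14.4% in regions of at least 500 bp. The H3K9me3 share after doxorubicin, 16.1%, was 14.1% with 50% covered, 19.1% with doxorubicin regions within 1000 bp counted, 20.4% after merging, 21.5% at a pileup of at least 30 and 13.4% in regions of at least 500 bp. The p53 share, 0.153%, was 0% in regions of at least 500 bp (0 of 894, up to 0.336% by 3 counts) and between 0.0890% and 0.481% under the other 10. The causes were not tested. Genes with a member and no doxorubicin region numbered 83, and 89 and 59 with windows of 500 and 2500 bp. The limits on length and the range of pileup 21 to 30 were chosen after seeing the data. No paired analysis was possible because both libraries of a group were called together, which also bars leaving 1 out.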

Other observations

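Among non-coding entries, 75 of 12731 long non-coding RNA genes (0.589%) had a vehicle-only region within 1000 bp of an end, or 3.50% of the 2142 with any vehicle region of pileup 21 or more there, against 2.84% of the 7642 such protein-coding genes. Of 407 pseudogenes with such a vehicle region, 22 (5.41%) had a vehicle-only one.

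After vehicle, an H3K9me3 region lay within 500 bp of the summit in 14.9% (13.1% to 17%) of members and 13.2% (12.8% to 13.6%) of shared regions, whereas by overlap with the whole region the shares were 14.4% and 15.3%.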
